A study of Homo sapiens with 2 samples.

Results

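The genes described here are 10 well-known transcriptional targets of YAP and TEAD, namely CCN1, CCN2, ANKRD1, AMOTL2, AJUBA, CRIM1, F3, FJX1, NT5E and MYOF. They were measured in MDA-MB-231 cells, a human line of triple-negative breast cancer, of which si-NC cells received a negative-control small interfering RNA (siRNA) and si-HnRNPF cells an siRNA against HNRNPF, which encodes an RNA-binding protein of splicing and polyadenylation. Each group was 1 library of polyadenylated RNA, so differences carry no replicate check, no p-value was computed and "higher" and "lower" refer to these 2 libraries. The 10 genes were found by symbol, 1 row each, among the 20323 genes of the deposited table, and all 10 were among the 12218 expressed genes (at least 1 CPM and 20 counts in the higher library, where CPM is counts scaled to a library of 1000000). They were chosen from known targets with the ratio of si-HnRNPF over si-NC in these data already in view, so their ratios are a description of the members and not a test of them. The siRNA sequences, their dose and the time after transfection were not stated in the labels.

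YAP1 and its paralog WWTR1 (TAZ) are transcriptional coactivators that have no DNA-binding domain of their own and reach their targets through the TEAD factors, which recognise the sequence GGAATG. The Hippo kinases hold them back: STK3 and STK4 activate LATS1 and LATS2, which phosphorylate YAP1 and WWTR1 and keep them out of the nucleus, and NF2 helps to recruit LATS to the membrane. Loss of NF2 function is known in MDA-MB-231 cells, which are widely used as a model of active YAP. Among the targets, some feed back on the pathway, as AMOTL2 does by binding YAP1 and as LATS2 does as a kinase, and others act outside the cell, as the matrix-associated proteins CCN1 and CCN2 do.

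The sequences before the RefSeq start sites are given first, because 4 members carried the TEAD sequence there. RefSeq promoter windows (GRCh38.p14) were at hand for 8 of the 10 genes, 10 windows in all because AMOTL2 and AJUBA each have 2 start sites; CCN1 and CRIM1 have no entry. In the 250 bases before the start, GGAATG was searched on both strands, where CATTCC is the same sequence read on the other strand. It was found in 7 places, belonging to CCN2, ANKRD1, AMOTL2 and AJUBA. Of 35116 promoter windows of that length, 11.9% held at least 1 match, 0.940% at least 2 and 0.0826% at least 3. CCN2 had 3 matches and ANKRD1 had 2. The CCN2 window, chr6:131951373-131951622 on the minus strand, is printed 5′ to 3′ with the TEAD matches in capitals, starting 169, 104 and 95 bases before the start site.
CCN2: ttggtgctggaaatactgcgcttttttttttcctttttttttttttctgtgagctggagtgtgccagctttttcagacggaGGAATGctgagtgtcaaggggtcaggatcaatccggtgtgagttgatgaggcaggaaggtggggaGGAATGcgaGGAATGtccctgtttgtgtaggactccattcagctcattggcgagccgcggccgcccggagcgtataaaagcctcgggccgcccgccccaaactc

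The matches of the other 3 genes are shown with the bases around them, again 5′ to 3′ on the gene's strand with the TEAD match in capitals, so that they can be set beside those of CCN2. Those of ANKRD1 lay at chr10:90921290-90921319 and chr10:90921198-90921227, minus strand, starting 220 and 128 bases before the start site. That of AMOTL2 lay at chr3:134374499-134374528, minus strand, 69 bases before the inner of its 2 start sites, and that of AJUBA at chr14:22976884-22976913, minus strand, 59 bases before its inner start site. By the GENCODE 29 annotation the matches of AMOTL2 and AJUBA and the proximal one of ANKRD1 lie within the gene's own span, and annotated exons cover 147, 250 and 189 of the 250 bases of these windows, whereas the distal match of ANKRD1 and those of CCN2 lie upstream of the gene.
ANKRD1 distal: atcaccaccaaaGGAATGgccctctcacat
ANKRD1 proximal: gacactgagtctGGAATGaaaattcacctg
AMOTL2: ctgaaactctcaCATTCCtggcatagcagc
AJUBA: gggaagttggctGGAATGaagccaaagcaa

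No match lay in the windows of F3, FJX1, MYOF and NT5E, which says only that these letters are absent from that window. The sequence of AP-1, the dimers of FOS and JUN, was searched as TGANTCA with any base at N, a loose pattern that reads the same on both strands. It was found once in ANKRD1 (TGATTCA) and in 2 places in F3 (TGAATCA and TGAGTCA), and 6.57% of all windows held it. The F3 matches began 223 and 210 bases before the start site, and the second of them is shown with the bases around it, at chr1:94541952-94541981, minus strand, in capitals.
F3: gaatcactggggTGAGTCAtcccttgcagg
No window of a member held a CArG box, the binding sequence of SRF, against 1.16% of all windows, and only CCN2 held TATAAA, against 6.80%, when all 4 motifs were searched. The map of the matches orders the genes by their ratio. A match is a description of the sequence and does not show that a factor binds there.

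**Figure D1:**
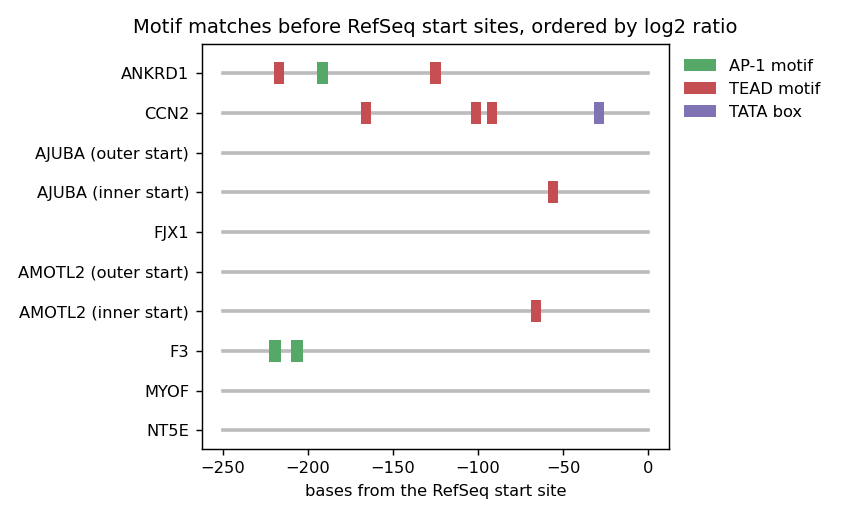
Motif matches in the 250 bases before each RefSeq start site of the 8 genes with a promoter entry; the horizontal axis is the distance from the start site in bases, and genes are ordered from the highest log2 ratio (top) to the lowest. Boxes mark TEAD, AP-1 and TATA matches; TEAD matches lie in CCN2, ANKRD1 and at the inner start sites of AJUBA and AMOTL2, and none lie in FJX1, F3, MYOF or NT5E.

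The libraries held 20654622 (si-NC) and 20134572 (si-HnRNPF) estimated counts. HNRNPF itself had 6373 counts in si-NC and 2451 in si-HnRNPF, 38.8% of control. The column of the second library is named si848 and was taken as si-HnRNPF because the other column carries the control's name. The labelled cell line showed its mesenchymal marker VIM at 66622 and 63656 counts. All 6 markers looked for in the line were expressed, but S100A4 had only 60 and 53 counts. PGR had no count in either library (which allows up to 0.1465 and 0.1477 CPM) and ESR1 had 3 and 8. Of the 2 epithelial markers expected to be low, CDH1 had 3 and 0 counts, whereas EPCAM counted as expressed, with 34 and 47. ERBB2 was expressed, with 1160 and 1236 counts. Of markers of other cells, 0 of 5 haematopoietic (summed level 0.0977 CPM in si-NC and 0.345 in si-HnRNPF), 2 of 5 endothelial (6.55 and 4.63 CPM) and 2 of 6 fibroblast markers (16.3 and 17.1 CPM) were expressed, with CD3E, VWF and COL1A2 at 0 counts in both libraries. In bulk RNA, fewer cells that express a gene and less RNA per cell cannot be told apart.

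Of the 10 target genes, 9 were higher in si-HnRNPF cells and NT5E was lower. The median log2 ratio (si-HnRNPF over si-NC, CPM) was 0.36, against 0.00 over all expressed genes. The share of all expressed genes above control was 50.1%, and among the 7359 genes that reached 25 CPM, a level that all 10 members reach and that was set after their levels were seen, it was 44.7%. At least 25% higher were 6 members (CCN1, ANKRD1, CCN2, AJUBA, FJX1 and AMOTL2), where 10.8% of expressed genes and 4.38% of genes at 25 CPM were. At least 20% lower, the same fold in the other direction, was NT5E alone, where 9.26% of expressed genes and 7.26% of those at 25 CPM were. At least 50% higher was CCN1, with ANKRD1 just short of that size, against 3.4% of expressed genes and 0.53% of those at 25 CPM. Some of these sizes were only just passed: with the trend of transcript GC content and length removed AMOTL2 and FJX1 were less than 25% higher (log2 ratios 0.30 and 0.27), by the authors' FPKM CCN1 was less than 50% higher (0.58) and ANKRD1 more (0.60), and NT5E was less than 20% lower in both cases (-0.26 and -0.30). Since the members were chosen with these ratios known, nothing is read from these shares. The 10 genes together took 0.325% of the counts of the si-NC library and 0.368% of those of si-HnRNPF.

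**Figure D2:**
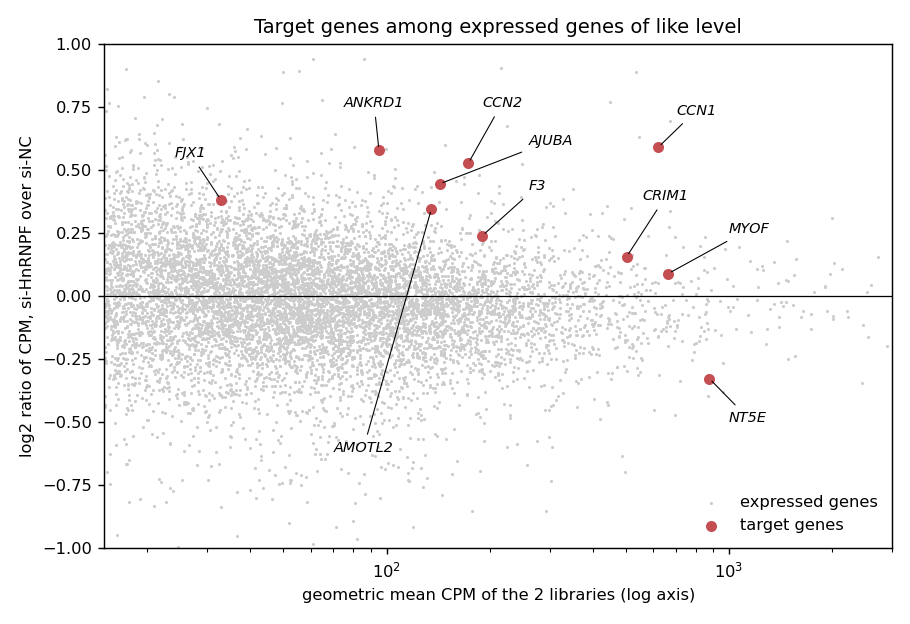
Log2 ratio of CPM (si-HnRNPF over si-NC, vertical axis) against the geometric mean CPM of the 2 libraries (horizontal log axis) for expressed genes (grey points; genes beyond the axes are not drawn) and the 10 target genes (red). CCN1, CCN2 and ANKRD1 lie high in the cloud, with log2 ratios of 0.59, 0.53 and 0.58, and NT5E lies below 0 at -0.33, where 6.86% of genes at 25 CPM were as low or lower.

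The matricellular pair CCN1 and CCN2, secreted proteins that bind integrins and matrix, were higher by a similar ratio at different levels. CCN1 (ENSG00000142871, GRCh38 chr1:85580761-85583962, plus strand) had 10375 counts in si-NC and 15511 in si-HnRNPF, or 507 and 764 CPM. Its ratio was 1.51-fold (exact 95% interval 1.47 to 1.54, counting error only). Of the genes at 25 CPM, 0.476% had a log2 ratio as high as CCN1 or higher. CCN2 (ENSG00000118523, chr6:131948176-131951373, minus strand), the gene with 3 TEAD matches printed above, had 2955 and 4226 counts, or 144 and 208 CPM. Its ratio was 1.44-fold (95% interval 1.37 to 1.51), and 0.856% of genes at 25 CPM were as high or higher. The intervals of the pair overlapped, so their ratios could not be told apart even by counting error. Annotated exons of CCN2 share 195 bases with an antisense gene, and no source used here states if reads were counted by strand, so reads of the pair cannot be told apart.

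ANKRD1, an ankyrin-repeat protein that acts as a nuclear cofactor and, in muscle, binds titin, was higher by a ratio close to theirs. ANKRD1 (ENSG00000148677, chr10:90912096-90921276, minus strand) had 1591 counts in si-NC and 2360 in si-HnRNPF, or 77.7 and 116 CPM, a ratio of 1.49-fold (95% interval 1.40 to 1.59). Its interval overlapped those of both CCN genes. The 3 genes therefore formed the upper end of the list, between 1.44-fold and 1.51-fold, and each was exceeded by fewer than 1 in 100 genes of 25 CPM or more.

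The members that regulate the Hippo pathway or sit at cell junctions were both higher, by less than CCN1, CCN2 and ANKRD1. AJUBA, a LIM-domain protein that restrains the LATS kinases, had 2506 counts in si-NC and 3386 in si-HnRNPF (122 and 167 CPM). Its log2 ratio was 0.44 (95% interval 0.37 to 0.52). That interval overlapped those of CCN2 and ANKRD1, so AJUBA could not be told apart from these by counting error, but it did not overlap that of CCN1. AMOTL2, an angiomotin that binds YAP1 and promotes LATS2 activity, had 2455 and 3097 counts (120 and 152 CPM), and its log2 ratio was 0.35 (95% interval 0.27 to 0.42). The pair had nearly the same level in control cells and overlapping intervals. AJUBA (ENSG00000129474) lies at chr14:22971174-22982642 and AMOTL2 (ENSG00000114019) at chr3:134355874-134375479, both on the minus strand. AJUBA shares 50 annotated exonic bases with another gene of the table that had 37.06 and 50.37 estimated counts, and AMOTL2 shares 187 with a pseudogene that is not in the table. The counts of both members were whole, as were those of all 10 genes. For AMOTL2 that says nothing of reads from the pseudogene, which has no row to share them with.

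FJX1, the human counterpart of the Drosophila gene four-jointed, whose product is a Golgi kinase that acts on cadherins of the Fat and Dachsous family, was the least abundant member. FJX1 (ENSG00000179431, chr11:35618419-35620868, plus strand) had 589 counts in si-NC and 762 in si-HnRNPF, or 28.8 and 37.5 CPM. Its log2 ratio of 0.38 had the widest interval of the 10, from 0.23 to 0.54, which overlapped those of AJUBA, AMOTL2, F3, CCN2 and ANKRD1. Of genes at 25 CPM, 2.64% were as high or higher.

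The higher surface proteins differed by less. F3, tissue factor, the receptor that starts blood coagulation, had 3587 counts in si-NC and 4203 in si-HnRNPF (175 and 207 CPM), a log2 ratio of 0.24 (95% interval 0.18 to 0.30). CRIM1, a transmembrane protein with cysteine-rich repeats that binds bone morphogenetic proteins, had 9739 and 10765 counts (476 and 530 CPM), which gave a log2 ratio of 0.16 (95% interval 0.12 to 0.20). MYOF, a ferlin that takes part in membrane repair and vesicle fusion, had 13193 and 13927 counts (644 and 686 CPM), with the smallest log2 ratio of the 10 in size, 0.09 (95% interval 0.05 to 0.12). Their counting intervals lay above 0, but 8.44%, 16.3% and 26.3% of genes at 25 CPM had a log2 ratio as high as F3, CRIM1 and MYOF or higher. F3 (ENSG00000117525) lies at chr1:94529225-94541800 (minus strand), CRIM1 (ENSG00000150938) at chr2:36355926-36551135 (plus strand), where it shares 177 exonic bases with an antisense gene, and MYOF (ENSG00000138119) at chr10:93306429-93482317 (minus strand).

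NT5E, also known as CD73, the surface enzyme that makes adenosine from AMP, was the single member lower in si-HnRNPF cells. NT5E (ENSG00000135318, chr6:85449584-85495791, plus strand) had 20103 counts in si-NC and 15895 in si-HnRNPF, or 982 and 782 CPM. Its ratio was 0.797-fold (95% interval 0.780 to 0.814), a log2 ratio of -0.33. Of genes at 25 CPM, 6.86% had a log2 ratio as low or lower. The interval of NT5E did not overlap that of any other member.

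**Figure D3:**
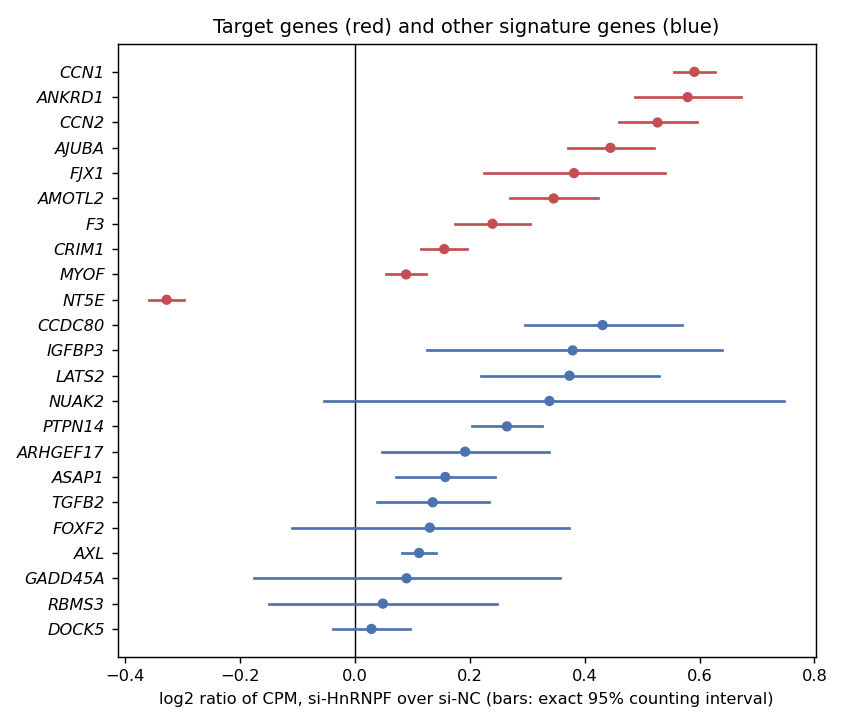
Log2 ratio of CPM (si-HnRNPF over si-NC, horizontal axis) of the 10 target genes (red) and of the 13 other genes of a published YAP and TEAD signature (blue); points are ratios and bars exact 95% intervals, which cover counting error only. All intervals of target genes lie to the right of 0 except that of NT5E, which lies to the left; of the blue genes 13 points lie to the right of 0 and 5 bars cross it.

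Per transcript length the order of the members changed at its top and in its middle. On the FPKM scale (fragments per kilobase of transcript, scaled to library size, the authors' values), NT5E was the highest in si-NC with 304.5, ahead of CCN1 with 226.4. In si-HnRNPF CCN1 was first with 338.2 and NT5E second with 247.6. MYOF followed in both libraries, at 94.6 in si-NC and 102.6 in si-HnRNPF. CRIM1, F3 and CCN2 stood at 80.4, 75.7 and 61.2 FPKM in si-NC and drew together in si-HnRNPF, at 90.5, 91.1 and 89.8. The lower end kept its order, with ANKRD1 at 43.0 and 65.5, AJUBA at 35.3 and 51.4, AMOTL2 at 28.2 and 34.6 and FJX1 at 11.9 and 15.7. By FPKM in si-NC, NT5E ranked 186 and CCN1 240 among the 12218 expressed genes, and FJX1 ranked 6291. By CPM NT5E was the highest member in both libraries, at 982 and 782, with CCN1 at 507 and 764.

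**Figure D4:**
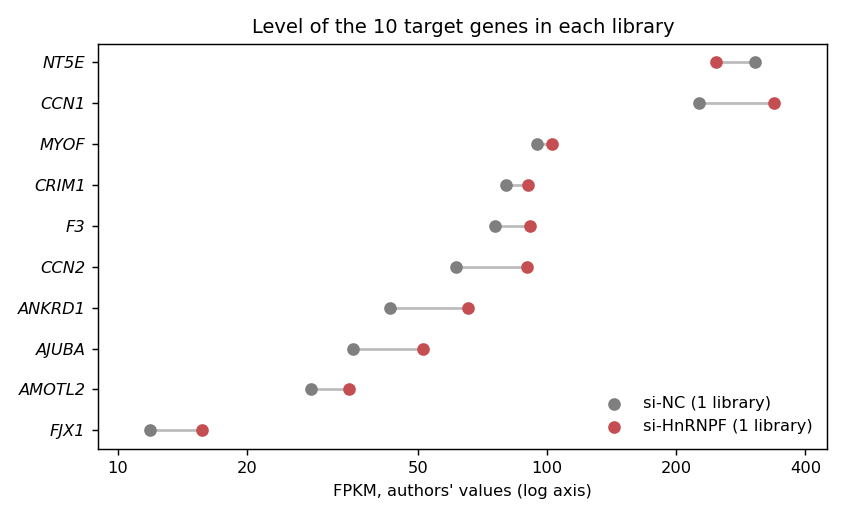
Level of each target gene in the si-NC library (grey) and the si-HnRNPF library (red), in the authors' FPKM on a log axis; each point is 1 library and the line joins the pair. By FPKM, though not by CPM, CCN1 passes NT5E as the most abundant member, from 226.4 to 338.2 FPKM, while NT5E goes from 304.5 to 247.6.

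The counts and FPKM together give the transcript length that the authors' values imply. It is computed from the same columns as the members' levels and ratios, so it is not a separate measurement. Among 7146 genes at 25 CPM with at least 5 FPKM in both libraries, the implied length differed between libraries by a median of 0.00%, and 90% of genes lay between -8.88% and 8.49%. CCN2, ANKRD1, FJX1, F3, MYOF and NT5E differed by less than 0.3%. AMOTL2 had an implied length of 4218 bases in si-NC and 4449 in si-HnRNPF, 5.49% longer, and AJUBA of 3438 and 3270 bases, a difference of -4.89%. CCN1 was 2.68% longer and CRIM1 0.747% longer. Annotated coding transcripts number 10 for AMOTL2, 7 for AJUBA, 5 for NT5E, 4 for CRIM1 and MYOF, 2 for F3 and 1 for CCN1, CCN2, ANKRD1 and FJX1, so CCN1 differed although it has 1. Differences at least as large as that of AMOTL2 were found in 18.7% of these genes and at least as large as that of AJUBA in 21.5%, so neither stood apart. With 0.1 added to each FPKM, the log2 ratio of AJUBA was 0.54 and that of AMOTL2 0.29.

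The heptamer GGAAGAA, looked for because earlier results of these data showed it more often in the 3' untranslated regions (UTRs) of genes lower in si-HnRNPF cells, was present in the 3' UTRs of 2 members, NT5E and CRIM1. Among genes at 25 CPM with an annotated 3' UTR, 21.5% carried it. The 1568 carriers had a median log2 ratio of -0.10 and the 5721 other genes one of -0.01, and 18.1% of carriers against 4.30% of others were at least 20% lower. Because the heptamer was picked from these same 2 libraries, that difference follows from the choice and is not a test of it. Carriers and other genes were not matched for 3' UTR length. The sites are shown because they fall in the single lower member and in a higher one. That of NT5E lies at chr6:85494824-85494830, plus strand, in the last of 9 exons and at base 820 of a 3' UTR of 1774 bases. That of CRIM1 lies at chr2:36549027-36549033, plus strand, in the last of 17 exons and at base 326 of a 3' UTR of 2434 bases. Capitals mark the heptamer, read on the transcript strand.
NT5E: agaaaggaaggGGAAGAAcaggactccag
CRIM1: gggtggtgttgGGAAGAAaaattggtcag
NT5E had a log2 ratio of -0.33 and CRIM1 one of 0.16, so carrying the heptamer did not go with a single direction in these genes. Whether the site bears on the level of either gene was not tested.

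The other genes of the pathway were taken from lists written with earlier results of these data known. A published YAP and TEAD signature of 22 genes holds 9 of the members, all but AJUBA, and all 22 were expressed. Of the 13 that are not members, 13 were above control (median log2 ratio 0.16, range 0.03 to 0.43), against the 50.1% of all expressed genes above control. The counting interval lay above 0 for 8 and crossed 0 for 5 (FOXF2, GADD45A, NUAK2, RBMS3 and DOCK5), where it lay above 0 for 2622 and crossed it for 6608 of the 12218 expressed genes. At least 25% higher were 4, against 10.8% of expressed genes and 4.38% of genes at 25 CPM. The highest were CCDC80, a secreted matrix protein, with 764 and 1023 counts (log2 ratio 0.43), IGFBP3, which binds insulin-like growth factors, with 225 and 291 (0.38), and the kinase LATS2 with 607 and 781 (0.37). PTPN14, a phosphatase that binds YAP1, had 4093 and 4880 counts (0.26). The receptor kinase AXL, the most abundant of them, had 17752 and 19035 (0.11), and DOCK5, a guanine nucleotide exchange factor, had 3630 and 3675 (0.03). RBMS3, whose counts are not whole, had a log2 ratio of 0.05 by counts and 0.46 by the authors' FPKM. In the whole signature the 5 carriers of GGAAGAA (CRIM1, FOXF2, NT5E, DOCK5 and TGFB2) had log2 ratios from -0.33 to 0.16, with a median of 0.13, and the other 17 from 0.05 to 0.59, with a median of 0.34. The heptamer and the list were both chosen with these data known, and 3' UTR length was not matched. Nothing is therefore read from that split, and a part of the heptamer in these ratios was not tested.

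By counts the coactivators themselves differed little. YAP1 had 4038 counts in si-NC and 4180 in si-HnRNPF, a log2 ratio of 0.06 (95% interval 0.00 to 0.12), and WWTR1 had 4445 and 4534, a ratio of 0.04 (95% interval -0.02 to 0.10). By the authors' FPKM YAP1 stood at 48.8 and 52.1, and WWTR1 was more clearly higher, at 48.4 and 58.3. The implied length of WWTR1 differed by -13.1%, and 4.81% of the genes compared for length differed by at least as much. Of their TEAD partners, TEAD1, by FPKM the most abundant at 54.5 and 47.5, was lower (log2 ratio of CPM -0.20, 95% interval -0.25 to -0.16), while TEAD2 (0.37), TEAD3 (0.29) and TEAD4 (0.21) were higher at 5.23 to 14.4 FPKM in si-NC. In the whole list of 20 Hippo kinases, scaffolds and transcription factors, 9 were above and 11 below control (45% above, against 50.1% of all expressed genes), and the median log2 ratio was -0.07. Counting intervals lay above 0 for 7, below for 10 and across it for 3. Among the 12218 expressed genes these numbers were 2622, 2988 and 6608, and among the 7359 genes at 25 CPM 1719, 2443 and 3197. MAP4K4, a kinase that activates LATS in parallel with STK3 and STK4, had 3723 and 2494 counts, and its log2 ratio was -0.57 (95% interval -0.64 to -0.49). STK3 (-0.33), VGLL3 (-0.39), a TEAD-binding cofactor, and VGLL4 (-0.21), a TEAD-binding repressor whose counts are not whole, were lower, and NF2 (0.36), LATS2 and WWC1 (0.25) were higher. RNA levels say nothing of the phosphorylation or the nuclear share of YAP1, which were not measured.

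**Figure D5:**
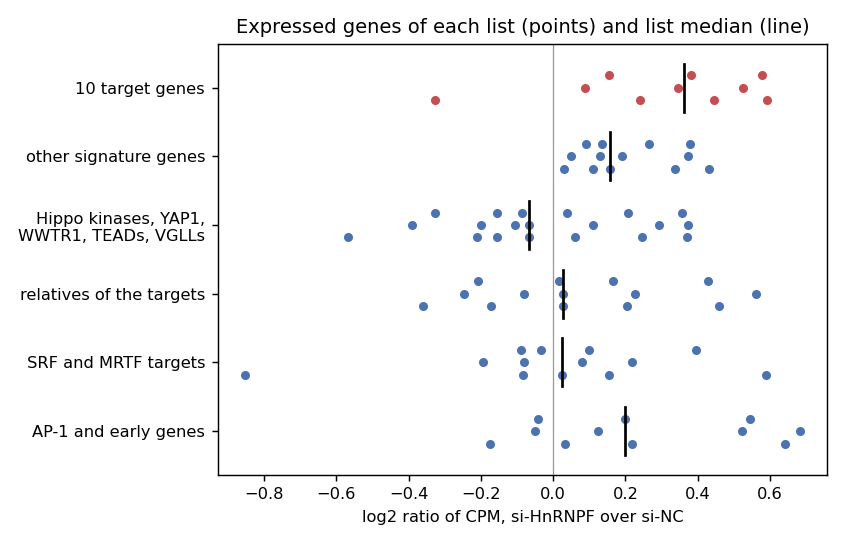
Log2 ratio of CPM (si-HnRNPF over si-NC, horizontal axis) of the expressed genes of each list (points) with the list's median (black line); the vertical offset within a list has no meaning. The medians are 0.36 for the 10 target genes, 0.16 for the 13 other signature genes, -0.07 for the Hippo and TEAD list, 0.03 for relatives of the targets, 0.02 for SRF and MRTF targets and 0.20 for AP-1 and immediate early genes.

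Relatives of the members by sequence or function lay on both sides of control. Of 24 such genes, 14 were expressed, 9 above (64.3%, against 50.1% of all expressed genes) and 5 below control, and their median log2 ratio was 0.03. At least 25% higher were 3 and at least 20% lower 1, where 10.8% and 9.26% of all expressed genes were. In the CCN family, CCN3 was lower, with 461 counts in si-NC and 356 in si-HnRNPF (log2 ratio -0.36, 95% interval -0.57 to -0.16). CCN5 had 2 counts in each library, and CCN4 and CCN6 had none. The angiomotins AMOT (285 and 286 counts, log2 ratio 0.02) and AMOTL1 (2105 and 2130, 0.03) had intervals that covered 0, unlike AMOTL2. The AJUBA relative LIMD1 had 1455 and 1249 counts (log2 ratio -0.21) and WTIP 86 and 118 (0.46, 95% interval 0.05 to 0.89). DYSF, a ferlin like MYOF, had 360 and 317 counts (log2 ratio -0.17, 95% interval -0.39 to 0.05). FAT4, an atypical cadherin of the family that four-jointed modifies in Drosophila, had 524 and 701 (0.43). ENTPD1, or CD39, which makes the AMP that NT5E uses, had 1022 and 1186 (0.23). TFPI, the inhibitor of the tissue factor pathway, had 1354 and 1132 (-0.25), opposite in direction to F3, and TFPI2 had 1032 and 1148 (0.16).

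Other transcription factors can also drive some of the members. SRF and its MRTF coactivators also act on CCN1 and CCN2. Of 13 expressed SRF and MRTF targets, 7 were above (53.8%, against 50.1% of all expressed genes) and 6 below control, their median log2 ratio being 0.02. FHL2, a LIM-domain cofactor, had 415 and 621 counts (0.59), and VCL, vinculin, 8048 and 4425 (-0.85), its counts not whole. Of 11 expressed AP-1 and immediate early genes, 8 were above control, 4 of them at least 25% higher, and none was at least 20% lower. Of all expressed genes 50.1% were above control, 10.8% at least 25% higher and 9.26% at least 20% lower. Their median log2 ratio was 0.20, against 0.16 for the 13 other signature genes. EGR1 had 197 and 315 counts (0.68), IER2 604 and 876 (0.55) and DUSP1 448 and 640 (0.52), whereas the abundant AP-1 genes FOSL1 (-0.05) and JUN (-0.04) had intervals that covered 0 and FOSL2 was lower (-0.17). These levels were measured in the same 2 libraries as CCN1, CCN2 and ANKRD1, and their part in the result was not tested.

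Among further genes often listed with YAP, THBS1, a matrix glycoprotein whose 3' UTR holds 1 copy of GGAAGAA, had 12471 counts in si-NC and 14957 in si-HnRNPF (log2 ratio 0.27, 95% interval 0.24 to 0.31). EDN1, the endothelin precursor, had 191 and 268 counts (0.50, 95% interval 0.23 to 0.78). Both were higher in si-HnRNPF cells, with ratios inside the range of the 9 higher members, whereas the counting intervals of AREG, TGFB1 and BIRC5 covered 0.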

How the data were processed

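The members and lists were chosen with earlier results of these data known. Polyadenylated RNA was sequenced from 1 library per group. Per the submitters' processing notes, fastp 0.18.0, HISAT2, StringTie 1.3.1, RSEM and the build GRCh38 were used, without roles or order; no source used here names the annotation release or strand setting. Per the file headers, the authors deposited estimated counts, unscaled and not whole in 11.6% and 12.0% of genes, and FPKM per gene. Another 2 columns of per-library values were not used. Estimated counts were rounded. Library sizes were scaled with TMM factors (edgeR 4.0.16 in R 4.3.3) to 20471293 (si-NC) and 20314875 (si-HnRNPF), and the log2 ratio of CPM used a prior count of 2. Each 95% interval takes a gene's si-HnRNPF counts as a binomial share of its summed counts (exact Clopper-Pearson limits, scipy 1.17.1) and converts the limits to a ratio with the scaled sizes; reads are not independent molecules, so intervals and the floor of 3 counts cover counting error only. The ratio and interval were run on simulated Poisson counts at the real depths, which hold the counting error that the interval assumes. These counts held no variation between replicate libraries, so the run says nothing of it. Implied length is the count divided by FPKM and the library total. Coordinates, transcripts and 3' UTRs (the principal coding transcript) came from GENCODE 29 on GRCh38, promoters from RefSeq on GRCh38.p14. Genes named are the 10 members, HNRNPF and genes of the fixed lists. Of these lists 2 genes are not reported here. Alternatives were library totals, DESeq2 1.42.0 size factors, FPKM plus 0.1, a prior count of 0.5, a higher minimum and removal of the GC and length trend.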

Additional observations from a re-analysis of the deposited data

How the results depend on the processing

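The number of members above control (9) and of the 22 signature genes above control (21) was the same under 6 other settings, namely library totals, DESeq2 size factors, the authors' FPKM plus 0.1, a prior count of 0.5, a minimum of 5 CPM and 100 counts, and removal of the trend of transcript GC content and length. No member or signature gene changed direction under any of them. The higher minimum left every ratio as it was, the lower prior count barely moved them, and library totals and DESeq2 factors moved all genes alike. Directions could hardly change under those settings, and only FPKM and removal of the trend shifted genes separately. The median of the members ranged from 0.29 with the trend removed to 0.39 with library totals. The count of members at least 25% higher was 6, but 5 by FPKM, where AMOTL2 was at 0.29, and 4 with the trend removed, where AMOTL2 was at 0.30 and FJX1 at 0.27. CCN1 was less than 50% higher with DESeq2 size factors (log2 ratio 0.58) and by FPKM (0.58). ANKRD1 was more than 50% higher with library totals (0.61), by FPKM (0.60) and with the trend removed (0.62), so which of the pair passed that size depended on the setting. NT5E was less than 20% lower with library totals (-0.30), by FPKM (-0.30) and with the trend removed (-0.26). No paired analysis was possible because each group is 1 library. Depth limits the less abundant genes: with 96 and 121 counts, NUAK2 had an interval from -0.05 to 0.75.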
